A study of Oryzias melastigma with 6 samples.

Results

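Brain and liver of the marine medaka, a small saltwater fish, were compared by the small RNA that each organ held in each sex. All 4 libraries labelled brain or liver were used, 1 per sex and organ, of 6 libraries in the series, which also holds an ovary and a testis. The labels describe breeding fish and tissue pooled before RNA extraction, with no treatment and with no strain, age or number of fish given in the sources used here. Each organ had 1 library from females and 1 from males (n = 2), so every p-value sets the difference between organs against the spread between 2 pooled libraries of opposite sex, not between fish. An exact permutation test of 2 libraries against 2 cannot give a two-sided p below 0.333, so the tests come from a model (limma) fitted over all features at once. The model shares the spread among features, so a p-value does not rest on a feature's own spread alone.

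A microRNA (miRNA) is cut from a short RNA hairpin, and either arm of the hairpin, 5p or 3p, can become the mature strand that guides silencing of messenger RNA. Bases 2 to 8 of the mature strand, the seed, do most of the pairing with a target. Many miRNAs occur as several paralogues with the same seed and a few differing bases further along, and each is found as a set of isoforms with shifted or trimmed ends. In vertebrates miR-9, miR-124, miR-128 and miR-153 are known from neurons, and miR-122 is the textbook miRNA of hepatocytes.

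The files gave exact sequences of 20 to 23 nt with an expression value in RPM, reads scaled to a common library total. Implied totals were 18.7 to 22.7 M reads (M, mega). No sequence was listed below 8.03 RPM in female brain, 6.03 RPM in male brain, 6.03 RPM in female liver and 6.002 RPM in male liver, which was 112 to 182 reads, with a counting error of 7.41% to 9.45% there. An unlisted sequence was therefore below its file's minimum and is not shown to be absent. Together the 4 libraries listed 1397 sequences, of which 1109 were assigned to 124 family arms (1 arm of a conserved miRNA family, all its paralogues and isoforms summed). Fewer cells of a type and less RNA per cell cannot be told apart in such bulk tissue.

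The sequences that carried the differences are printed below, 5′ to 3′, as the deposited files give them, with the seed in capitals. The first set comes from family arms that were higher in brain, and it was not listed in either liver library. miR-9-3p is shown with its most abundant isoform, a paralogue and an isoform whose start 1 base upstream moves the seed.
miR-9-3p, most abundant: tAAAGCTAgataaccgaaagta
miR-9-3p, paralogue: tAAAGCTAgagaaccgaaagta
miR-9-3p, start 1 base upstream: aTAAAGCTagataaccgaaagt
miR-153-3p: tTGCATAGtcacaaaagtgatc
miR-132-3p: tAACAGTCtacagccatggtcgt
miR-217-5p: tACTGCATcaggaactgattggc
miR-124-3p: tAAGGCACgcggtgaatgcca

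The second set comes from family arms that were higher in liver. It was listed only in the liver libraries, with these exceptions. The first miR-194-5p sequence was listed at 8.61 RPM in female brain, and miR-722-3p at 15.4 and 9.24 RPM in the brains.
miR-194-5p, most abundant: tGTAACAGcatctccatatgg
miR-194-5p, paralogue: tGTAACAGcaactccatgtgg
miR-122-5p: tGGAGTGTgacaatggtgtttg
miR-122-3p: aACGCCATtatcacactaaata
miR-192-5p/miR-215-5p: aTGACCTAtgaattgacagccat
miR-722-3p: tTTTGCAGaaacgtttcagatt

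The third set pairs forms of 1 family arm that share a seed and differed in share between the organs. The form named first in each pair took a larger share in both brain libraries than in either liver library. Forms are named by 1 base each, so miR-27a/b only stands for C at position 11.
miR-26a form: tTCAAGTAatccaggataggct
miR-26b form: tTCAAGTAatccaggataggtt
miR-101a form: tACAGTACtgtgataactgaag
miR-101b form: tACAGTACtatgataactgaag
miR-23b form: aTCACATTgccagggattacc
miR-23a form: aTCACATTgccagggatttcca
miR-103 form: aGCAGCATtgtacagggctatg
miR-107 form: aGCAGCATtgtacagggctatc
miR-27a/b form: tTCACAGTggctaagttcagt
miR-27c form: tTCACAGTggttaagttctgc

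Brain libraries held many more listed miRNA sequences. Throughout, the female value comes before the male one. Sequences assigned to family arms numbered 994 in female brain and 966 in male brain, against 223 in female liver and 262 in male liver. They took 23.4% and 21.2% of all brain reads and 1.84% and 2.01% of all liver reads. Of the 276 miRNA sequences listed in a liver library 85.5% were also listed in a brain library, whereas of the 1069 listed in a brain library 22.1% were listed in a liver library. At the level of family arms 63 were listed in both organs, 58 only in brain and 3 only in liver (miR-122-5p, miR-122-3p and miR-192-5p/miR-215-5p). Adapter sequences moved with the organ, at 256 and 211 RPM in brain and 2655 and 1263 RPM in liver, as did listed ribosomal RNA fragments (688 and 457 RPM against 1556 and 1080 RPM). Their part in the gap in miRNA share was not tested. Because the share of miRNA differed so widely, tests were run on deposited RPM and again after scaling every library to the same total of miRNA reads.

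In deposited RPM 86 of 121 family arms tested were higher in brain (71.1%) and 6 were higher in liver (4.96%), by limma with Benjamini-Hochberg adjustment at a threshold of 0.05. The median difference over all 121 was 2.57 on the log2 scale. After scaling to miRNA reads the median was 0.23, and of 95 arms tested 37 were higher in brain (38.9%) and 24 in liver (25.3%). Median-of-ratios scaling gave 47 and 15 of 99. There were 43 family arms called in the same direction on all 3 scales, 37 higher in brain and 6 higher in liver. On the RPM scale these calls were tested again without each of the 4 libraries in turn. Among arms that kept the call, only let-7-5p, miR-19-5p and miR-194-5p varied in both organs once values under 8.03 RPM were raised to it. In brain miR-194-5p varied only between 8.61 RPM and that minimum. In the other arms that kept the call, an organ had both libraries at the minimum and so no spread. Whether those calls hold across libraries cannot be decided from this. The arms named next lost the call, without changing direction, when a brain library was left out. miR-125-5p, miR-128-3p, miR-139-5p, miR-181-5p, miR-199-5p, miR-216-5p, miR-338-3p and miR-460-5p lost it without either brain library, and miR-122-3p and miR-722-3p lost it without the male brain (adjusted p = 0.0689 and 0.0604).

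The list of neuronal and brain miRNAs stood at 85726 and 78293 RPM summed over its 16 listed arms in female and male brain and at 6.46 and 17.4 RPM in the livers. That was 36.6% and 36.9% of brain miRNA reads, and 0.035% and 0.0868% of liver miRNA reads. Of the 16 arms 15 were higher in brain, beside 71.1% of all arms tested, with a list median of 7.51 on the log2 scale. After scaling to miRNA reads 15 of 15 were higher in brain, beside 38.9% of all arms, with a median of 4.74. The exception was miR-124-5p, the minor arm, listed in female brain alone at 10.8 RPM.

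miR-9-3p led the list. It stood at 32512 RPM in female brain and 35282 RPM in male brain, 13.9% and 16.6% of all miRNA reads there, and no sequence of it was listed in liver. Its most abundant isoform, at 17007 and 19961 RPM, was therefore at least 2819-fold higher in either brain library than the minimum of either liver file (limma adjusted p = 0.000149 over all sequences). The other arm, miR-9-5p, which in other vertebrates acts in neural progenitors together with miR-9-3p, stood at 5222 and 3602 RPM and was likewise not listed in liver. The plot of levels by library shows both arms at the top and near the middle of the brain group.

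**Figure D1:**
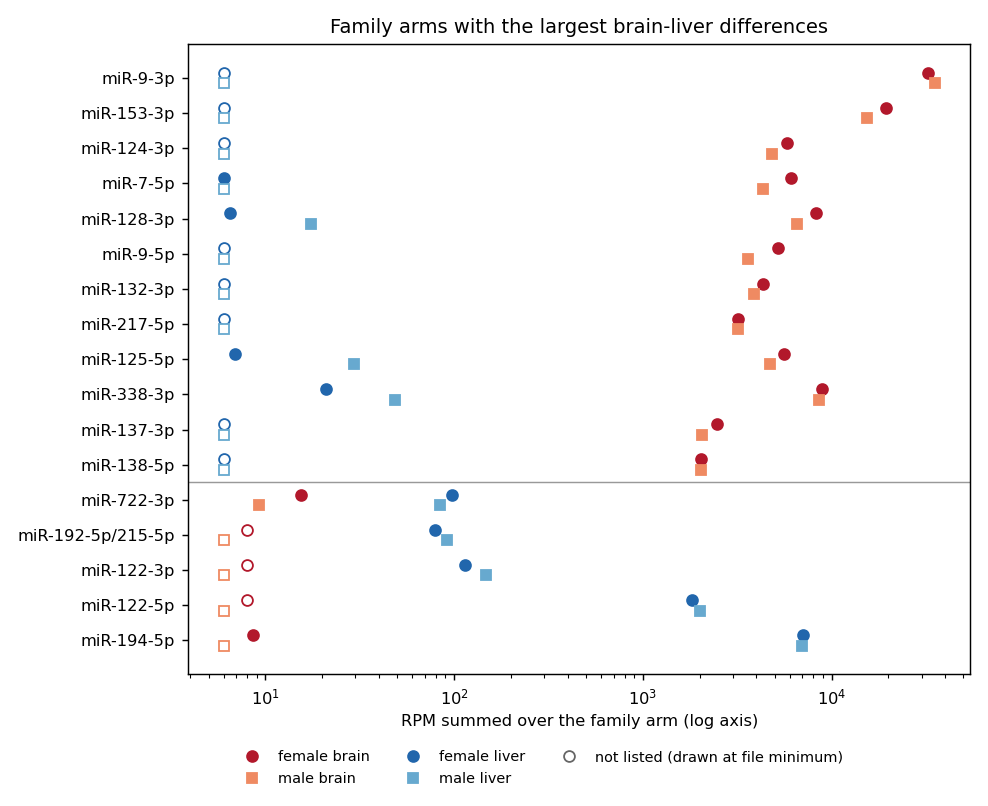
Level of each family arm (RPM, log axis) in the 4 libraries, for the 12 arms with the largest brain-over-liver difference (above the line) and the 5 with the largest liver-over-brain difference that passed the naming rule (below it). Filled points are listed values and open points stand at the file's minimum for arms that were not listed. All 17 arms were picked for having no overlap between brain and liver libraries.

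miR-153-3p, known from brain in vertebrates, stood at 19332 and 15491 RPM, and its main isoform (12123 and 9898 RPM) was at least 1641-fold above the liver minimum. miR-124-3p, the neuronal miRNA known for repressing non-neuronal transcripts, stood at 5781 and 4860 RPM, with a bound of 355-fold for its main isoform. miR-132-3p, induced by neuronal activity in mammals, stood at 4350 and 3860 RPM, with a bound of 502-fold. All 3 were at or above 3860 RPM in both brains and were not listed in either liver.

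miR-128-3p was listed in all 4 libraries, at 8238 and 6563 RPM in brain and 6.46 and 17.4 RPM in liver. The difference was 9.16 ± 0.45 on the log2 scale (SE; limma adjusted p = 0.000757), and 5.86 ± 0.53 after scaling to miRNA reads (limma adjusted p = 0.00469). The remaining neuronal arms were lower but equally one-sided. miR-137-3p stood at 2470 and 2046 RPM, miR-138-5p at 2045 and 2035 RPM, and both strands of miR-129 lay between 1090 and 1630 RPM. miR-135-5p, miR-218-5p, miR-132-5p, miR-34-5p (summed with miR-449-5p) and miR-138-3p ranged from 89.1 to 1460 RPM in the brains, and none was listed in liver.

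Oligodendrocyte miRNAs followed the neuronal ones. miR-338-3p, which in mammals promotes oligodendrocyte maturation, was listed in all 4 libraries at 8850 and 8619 RPM in brain and 20.8 and 48.8 RPM in liver. miR-219-5p, its partner in that role, stood at 357 and 255 RPM in brain and was not listed in liver. Together with miR-219-3p, which did not pass the test (8.79 and 14.6 RPM in brain), 2 of 3 listed arms were higher in brain in deposited RPM, near the 71.1% of all arms, and 2 of 2 tested after scaling, beside 38.9%. Of the pituitary and neuroendocrine list 2 of 3 arms were higher in brain, again near 71.1%, miR-7-5p at 6096 and 4354 RPM, with 6.03 RPM in female liver, and miR-375-3p at 67.1 and 42.6 RPM. The latter did not reach the common minimum after scaling to miRNA reads and was not called by median-of-ratios (limma adjusted p = 0.36).

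Of the list of pancreas miRNAs 3 of 3 arms were higher in brain, beside 71.1% of all arms, and 2 of 2 tested after scaling, beside 38.9%. miR-217-5p stood at 3179 and 3176 RPM, was not listed in liver, and had a bound of 384-fold for its main isoform. miR-216-5p, encoded beside miR-217 in vertebrates, stood at 8696 and 9335 RPM in brain against 52.7 and 154 RPM in liver, a difference of 6.63 ± 0.63 on the log2 scale (limma adjusted p = 0.00383). It was 3.11 ± 0.59 after scaling to miRNA reads (limma adjusted p = 0.0241). miR-375-3p, the islet miRNA on the same list, was 47.4-fold and 74.5-fold lower in RPM than miR-217-5p in the brains. Retina and sensory miRNAs were also listed: miR-96-5p at 926 and 1512 RPM in brain against 16.6 and 38.9 RPM in liver, and miR-204-5p at 730 and 517 RPM in brain alone. Of that list 3 of 5 arms were higher in brain in deposited RPM, a smaller share than the 71.1% of all arms, and 1 of 2 tested after scaling, beside 38.9%. miR-96-5p was not called after scaling to miRNA reads (limma adjusted p = 0.0583).

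Among families shared by the organs let-7-5p was the most abundant, at 37500 and 30529 RPM in brain and 1856 and 1571 RPM in liver. It differed by 4.31 ± 0.18 on the log2 scale in deposited RPM and by 0.78 ± 0.18 after scaling to miRNA reads (limma adjusted p = 0.000559 and 0.0374). let-7, a regulator of differentiation in animals, thus took 16.03% and 14.4% of brain miRNA reads and 10.1% and 7.83% of liver miRNA reads. miR-181-5p stood at 11171 and 9933 RPM against 114 and 221 RPM. miR-125-5p stood at 5589 and 4728 RPM against 6.88 and 29.5 RPM, and was higher in brain on both scales (limma adjusted p = 0.0031 and 0.0163).

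The liver profile was led by a single sequence. The miR-194-5p isoform printed above stood at 6518 RPM in female liver and 6476 RPM in male liver. It alone was 92.4% and 93% of its family arm, and the arm was 38.3% and 34.7% of all liver miRNA reads. In brain it was listed once, at 8.61 RPM in the female library. miR-194 is known from gut epithelium and liver in mammals. Its family arm differed by -9.56 ± 0.10 on the log2 scale (brain minus liver; limma adjusted p = 8.92e-05) and by -10.06 ± 0.10 after scaling to miRNA reads (limma adjusted p = 9.77e-05). The paralogue, which differs from the leading sequence by T11A and A18G (positions counted from the 5′ end, leading sequence first), stood at 245 and 194 RPM in liver and was not listed in brain. Forms with T at position 11 made up 95.7% and 96.6% of liver miR-194-5p.

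miR-122-5p stood at 1823 and 2011 RPM in liver, with 9.89% and 10.02% of miRNA reads, and was not listed in brain. Its main isoform, at 1097 and 1268 RPM, was at least 136-fold above the brain minimum. The passenger arm miR-122-3p stood at 115 and 148 RPM in liver alone, so that 94.1% and 93.2% of miR-122 reads were from the 5p arm. miR-192-5p/miR-215-5p, which in mammals is transcribed together with miR-194, stood at 79.3 and 92 RPM, and its main isoform was at least 6.06-fold above the brain minimum. The miR-194-5p arm was 89-fold and 75.7-fold higher in RPM than it in the livers.

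Of the hepatocyte and gut list 4 of 6 arms were higher in liver in deposited RPM, beside 4.96% of all arms, with a median of -3.56 on the log2 scale. After scaling to miRNA reads 6 of 6 were higher in liver, beside 25.3%. The arms called only after scaling were both arms of miR-148, at 35.4 and 17.8 RPM (3p) and 75.9 and 39.1 RPM (5p) in liver against 7.85 to 19.3 RPM in brain. After scaling their brain values lay under that scale's minimum of 21.4 and were raised to it, so they had no spread. By median-of-ratios the 5p arm was called and the 3p arm was not (limma adjusted p = 0.0133 and 0.0568). This list took 49.8% and 46.2% of liver miRNA reads, and 0.0134% and 0.0128% of brain miRNA reads. miR-722-3p, a fish miRNA, was higher in liver, at 97.1 and 84.3 RPM against 15.4 and 9.24 RPM (-2.82 ± 0.30, limma adjusted p = 0.00478).

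Of the mesenchymal list 1 of 2 arms tested was higher in liver in deposited RPM, beside 4.96% of all arms, and 2 of 2 after scaling, beside 25.3%. miR-199-5p stood at 30.4 and 57.0 RPM in liver and 14.3 and 11.6 RPM in brain, and was called on all 3 scales. On the 2 rescaled scales its brain values lay under the minimum and were raised to it. miR-199-3p stood at 189 and 399 RPM in liver against 176 and 130 RPM in brain and was called on the 2 rescaled scales alone (limma adjusted p = 0.196 in RPM, 0.00525 scaled to miRNA reads, 0.000609 by median-of-ratios). Its sister miR-214 was listed in male brain alone, at 7.41 and 6.22 RPM for its 2 arms, under the common minimum used in the test.

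The direction depended on the scale for 9 family arms, which were called higher in brain in deposited RPM and higher in liver after scaling to miRNA reads. They were miR-144-3p, miR-140-5p, miR-27-3p, miR-126-3p, miR-30-5p, miR-26-5p, the arm of miR-25-3p, miR-92-3p and miR-363-3p, miR-99-3p/100-3p and miR-30-3p. For example miR-26-5p stood at 7605 and 7203 RPM in brain and 1744 and 1831 RPM in liver (2.05 ± 0.10 on the log2 scale), yet took 3.25% and 3.40% of brain and 9.46% and 9.13% of liver miRNA reads (-1.48 ± 0.09). miR-144-3p, expressed in red cells, went from 1.68 ± 0.29 to -1.84 ± 0.25, and miR-126-3p, expressed in endothelium, from 1.92 ± 0.33 to -1.60 ± 0.30. By median-of-ratios 2 of the 9 were called higher in liver, miR-140-5p and miR-27-3p (limma adjusted p = 0.0101 and 0.0133). There miR-26-5p, miR-144-3p and miR-126-3p were not called (limma adjusted p = 0.111, 0.0587 and 0.135), and miR-99-3p/100-3p stayed higher in brain without a call (0.38). Of the 50 named arms called in deposited RPM 23 lost the call without at least 1 library. Besides 8 given above these were miR-101-3p, miR-126-3p, miR-143-3p, both arms of miR-144, miR-145-5p, miR-182-5p, miR-205-5p, miR-21-5p, miR-223-3p, miR-24-3p, miR-29-3p, miR-451-5p, miR-499-5p and miR-96-5p, with limma adjusted p up to 0.315 (miR-24-3p without the male brain). The plot of both scales sets the 9 arms apart.

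**Figure D2:**
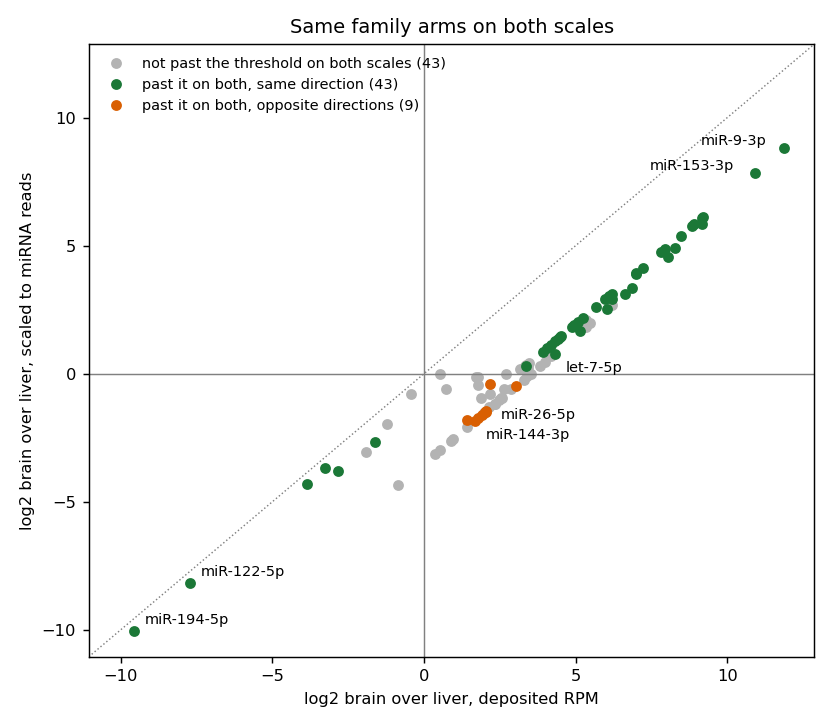
Difference of each of 95 family arms between brain and liver on the log2 scale, in deposited RPM (horizontal) and after scaling every library to the same total of miRNA reads (vertical); the dotted line marks equal values. The 43 green points passed the threshold on both scales in 1 direction, and the 9 orange points did so in opposite directions. All arms lie below the dotted line because scaling divided brain values by 3.57 and 3.24 and liver values by 0.282 and 0.307.

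The summed levels of other cell types' lists follow, and their counts stand beside 71.1% of all arms higher in brain in deposited RPM, and 38.9% higher in brain and 25.3% higher in liver after scaling. Red cell miRNAs (miR-144 and miR-451) summed to 1805 and 987 RPM in brain and 316 and 319 RPM in liver, or 0.772% and 0.465% against 1.71% and 1.59% of miRNA reads. In deposited RPM 3 of 3 were higher in brain, and after scaling 1 of 3 was higher in liver. The endothelial pair summed to 628 and 362 RPM against 134 and 117 RPM, with 1 of 2 higher in brain in RPM and 2 of 2 higher in liver after scaling. Smooth muscle miR-143 and miR-145 summed to 377 and 386 RPM against 44.1 and 92.4 RPM, with 2 of 2 higher in brain in RPM and 0 of 2 called after scaling. Leukocyte miRNAs summed to 253 and 269 RPM against 51.5 and 220 RPM, or 0.108% and 0.127% against 0.28% and 1.10% of miRNA reads. In deposited RPM 1 of 5 was higher in brain, a smaller share than over all arms, miR-223-3p at 12.8 and 11.3 RPM against 6.64 RPM in male liver alone. After scaling 1 of 3 was higher in liver, miR-146-5p (limma adjusted p = 0.0452).

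The epithelial list gave 2 of 5 higher in brain in RPM, a smaller share than the 71.1% of all arms, and after scaling 1 of 3 was higher in liver, beside 25.3%. The skeletal and heart muscle list gave 2 of 3 higher in brain, near the 71.1% of all arms. It was led by miR-1-3p/miR-206-3p at 346 and 205 RPM with none listed in liver. After scaling 1 of 2 was higher in brain, near the 38.9% of all arms. The gonad marker miR-202 was not listed in any of the 4 libraries. Skeletal and heart muscle, epithelial, red cell and endothelial RPM were higher in female than in male brain. Leukocyte, smooth muscle, epithelial and mesenchymal RPM were higher in male than in female liver. These directions were therefore not particular to 1 cell type. The part of these cells in the organ differences was not tested.

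Differences reached below the family level. Of 1042 exact sequences tested 648 were higher in brain (62.2%) and 26 in liver (2.5%), and after scaling to miRNA reads 159 (36.4%) and 101 (23.1%) of 437. Of the 50 family arms listed in all 4 libraries 39 had the same leading sequence in both organs. In the other 11 arms the leader differed by a substituted base in 8, by the 3′ end in 2 (miR-125-5p and the miR-17/20/93 arm) and by the 5′ end in 1 (the arm of miR-130-3p and miR-301-3p).

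The share of a family arm's reads held by its leading sequence (highest mean RPM over the 4 libraries) differed between the organs in 21 of 49 arms (42.9%; limma adjusted p under 0.05). This measure does not depend on how libraries are scaled, but an arm near the minimum lists few of its isoforms. In 9 of the 21 at least 1 library listed a single sequence of the arm, which makes the share 0% or 100%. The leading sequence was then picked again over sequences listed in all 4 libraries, so that both organs are read over the same forms. There 11 of 28 arms differed (39.3%). That fit gave every arm the same SE of 3.95 percentage points, so its calls do not rest on each arm's own spread. Of the 9 arms called both ways 8 kept the direction: miR-101-3p, miR-103-3p/miR-107-3p, miR-141-3p/200a-3p, the miR-17/20/93 arm, miR-21-5p, miR-23-3p, miR-26-5p and miR-451-5p. The exception was miR-27-3p. In miR-27-3p and miR-103-3p/miR-107-3p the leading sequence over all forms was not listed in liver, so the later fit followed another sequence. For these arms the directions cannot be compared. The call for miR-141-3p/200a-3p was lost without each of the 4 libraries (limma adjusted p from 0.0607 to 0.162).

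In several of these arms the shares of paralogues differed between the organs. In miR-26-5p, whose 2 forms differ by C21T, the miR-26a form stood at 5944 and 5565 RPM in brain and 764 and 828 RPM in liver, summed over its isoforms. The miR-26b form stood at 920 and 880.5 RPM in brain and 827 and 832 RPM in liver. In deposited RPM the miR-26b form thus varied 1.11-fold over the 4 libraries. This evenness depends on the scale. Scaling to miRNA reads divided brain values by 3.57 and 3.24 and liver values by 0.282 and 0.307, which places the miR-26b form higher in liver. The shares do not depend on it: the miR-26a form took 86.6% and 86.3% of both forms in brain and 48.0% and 49.9% in liver. In deposited RPM the printed miR-26a sequence differed by 2.81 on the log2 scale (limma adjusted p = 0.000343), and the printed miR-26b sequence by 0.22 (limma adjusted p = 0.077).

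The miR-101-3p forms differ by G10A. The miR-101a form stood at 1146 and 954 RPM in brain and 35.5 and 28.6 RPM in liver, whereas the miR-101b form stood at 415 and 374 RPM in brain and 343 and 184 RPM in liver. Its miR-101a share was 73.4% and 71.9% in brain and 9.39% and 13.4% in liver. The share of the leading sequence fell from 36.3 ± 0.08% in brain to 5.57 ± 0.99% in liver (SD, n = 2; limma adjusted p = 0.00121). In miR-23-3p, where the forms differ by A19T, the miR-23b form stood at 157 and 114 RPM in brain and 7.20 and 8.25 RPM in liver. Its miR-23a form was higher in liver, at 111 and 168 RPM against 95.1 and 56.1 RPM, so the miR-23b share was 62.2% and 67% in brain and 6.10% and 4.69% in liver. The family sum of miR-23-3p stood at 252 and 170 RPM in brain and 118 and 176 RPM in liver, and was not called in deposited RPM (limma adjusted p = 0.243). It was called higher in liver after scaling to miRNA reads (-2.99, limma adjusted p = 0.00448) and by median-of-ratios (-2.13, limma adjusted p = 0.000804).

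In 4 further families a form was listed in brain alone. The miR-103 form (G22C against miR-107) stood at 1065 and 879 RPM in brain and was not listed in liver, where the miR-107 form stood at 36.6 and 109 RPM. Sequences of 20 and 21 nt may not reach base 22 and then count for neither form. They held 12.9% and 20.3% of the arm in female liver and 10.5% and 15.3% in male liver. Shorter miR-103 sequences in liver therefore cannot be told apart from miR-107. The miR-27a/b form (C11T against miR-27c) stood at 235 and 205 RPM in brain and was not listed in liver. The miR-27c form stood at 69.6 and 98.4 RPM in liver, against 82.5 and 53.6 RPM in brain. The printed sequences also differ by A19T and T21C. The name miR-27a/b rests on base 11 alone and is not shown to be right for the printed sequence. The miR-99 form (T16A against miR-100) stood at 850 and 751.5 RPM in brain and was not listed in liver, where the miR-100 form stood at 22.4 and 86.9 RPM. The miR-10b form stood at 239 and 270 RPM in brain and was not listed in liver, where the whole arm lay near the minimum, at 6.085 and 6.64 RPM of the other form.

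Other families kept their member shares. The miR-181a form took 86.5% and 87.3% in brain and 89.2% and 88.2% in liver of the 2 miR-181-5p forms, although the arm as a whole was 6.04 higher in brain on the log2 scale. The miR-216b form took 79.7% and 81.2% in brain and 83.8% and 82.7% in liver. For miR-15-5p/16-5p the organs overlapped, with 42.1% and 47.7% against 53% and 46.6%, and so they did for miR-25-3p against miR-92-3p. These families and forms were picked with their values known, so the shares are a description. For miR-29-3p they could not be compared, since its 23-nt sequence with A at position 18 was not listed in female brain and stood at 5976 RPM in male brain, while the 22-nt form of the same paralogue stood at 398 and 247 RPM.

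**Figure D3:**
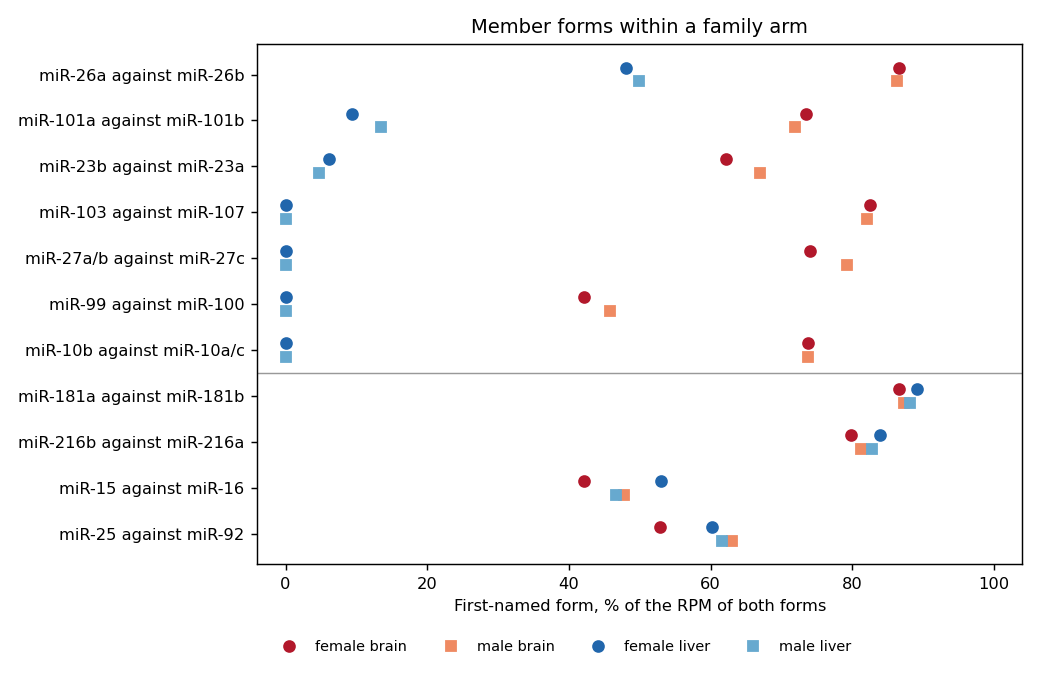
Share of the first-named form (%, of the RPM of both forms) in 11 family arms, with 1 point per library. Forms are named by 1 base each, and sequences too short to hold that base were left out. Above the line brain libraries lie to the right of liver libraries in all 7 arms, with shares of 0% where the form was not listed in liver; below it a brain and a liver library differ by at most 10.9 percentage points.

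The brain libraries listed 194 distinct seeds each, and the liver libraries 70 and 83, with variants of 1 base counted as seeds of their own. Brain held far more miRNA reads above the listing minimum, so these counts do not compare the diversity of seeds. The 5 most used seeds took 41.6% and 43.9% of miRNA reads in brain and 74.6% and 64.8% in liver. In liver the miR-194 seed GTAACAG alone took 37.8% and 34.0%. Since miR-9-3p was sequenced with more than 1 start, 77.3% and 81.3% of its reads carried the seed AAAGCTA, 20.7% and 16.8% carried TAAAGCT, and 1.48% and 1.30% carried AAGCTAG. miR-124-3p was also split, with 83.6% and 83.5% on AAGGCAC and 14.1% and 14.6% on TAAGGCA.

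The share of an arm's reads at the 5′ end of its leading sequence differed in 20 of 49 arms (40.8%), but in 0 of 28 over the sequences listed in all 4 libraries (0%; limma, with 3 of 28 at an unadjusted p under 0.05). In 11 of the 20 a library listed 1 sequence of the arm. Over the sequences listed in all 4 libraries most of the 28 arms stood at 100% in every library. No difference could be found for them, so the 0 of 28 does not show that the organs share their 5′ ends. For miR-101-3p, which was not called (limma adjusted p = 0.164), the shifted seed TACAGTA took 25.7% and 26.4% in brain and 33.1% and 39.2% in liver. Over the sequences listed in all 4 libraries the share at its leading 5′ end was 90.2% and 89.6% in brain. In liver it was 67.6% and 63.5%, again without a call (limma adjusted p = 0.0851). For miR-144-3p, which was called over all its sequences (limma adjusted p = 0.0241), the same 7 bases were the more common seed, at 67.3% and 68.6% in brain and 60.6% and 59.0% in liver.

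Liver miRNA reads were shorter than brain reads. The mean length was 21.79 and 21.82 nt in brain and 21.58 and 21.60 nt in liver. Sequences of 21 nt made up 22.7% and 21.5% of brain reads and 46.9% and 43.7% of liver reads, while 22 nt made up 53.4% and 52.7% against 33.8% and 34.9%. This rested on 1 family: without miR-194-5p, whose leading sequence has 21 nt, liver had 16.6% and 16.1% at 21 nt and a mean of 21.92 nt in each library. Without it the share at 22 nt was 53.3% and 52.5%, and the share at 23 nt was 22.9% and 23.7% against 16.6% and 18.4%.

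**Figure D4:**
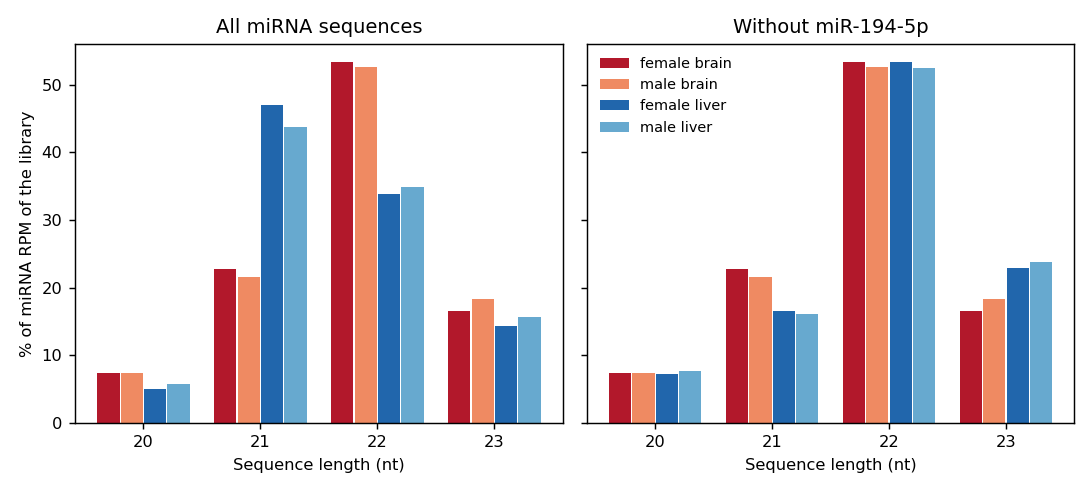
Share of miRNA RPM (%) at each length from 20 to 23 nt in the 4 libraries, for all miRNA sequences (left) and without miR-194-5p (right). The liver excess at 21 nt (46.9% and 43.7%) is gone on the right (16.6% and 16.1%), where liver exceeds brain at 23 nt.

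Within family arms the mean length differed in 12 of 49 (24.5%), with 3 longer in brain and 9 longer in liver. Over sequences listed in all 4 libraries 7 of 28 differed (25%), 1 longer in brain and 6 in liver. Called both ways were miR-101-3p, longer in brain, and miR-141-3p/200a-3p, miR-21-5p, miR-23-3p and miR-451-5p, longer in liver. In miR-23-3p the printed miR-23a sequence, longer than the printed miR-23b sequence, held 16.9% and 13.4% in brain and 64.9% and 65.2% in liver. Its length difference is therefore not separate from the difference in forms. The same holds for miR-101-3p, whose leading sequence was of the miR-101a form in brain and a shorter one of the miR-101b form in liver. With sex as a block no arm was called by limma, with 12 of 49 at an unadjusted p under 0.05. Leaving out 1 library lost the call for each of the 5 arms called both ways at least 2 times, at adjusted p up to 0.208.

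miR-451-5p is matured by Argonaute cleavage and trimming in vertebrates. Its 23-nt form held 34.6% and 38.9% of the arm in brain and 57.5% and 53.3% in liver, and its 21-nt form 33.4% and 32.6% against 20.04% and 23.5%. The mean was 21.98 ± 0.04 nt in brain and 22.34 ± 0.05 nt in liver (SD, n = 2; limma adjusted p = 0.0329). In miR-21-5p, widespread in animal tissues, sequences of 23 nt made up 11.6% and 9.84% in brain and 34.1% and 28.4% in liver. The forms of these 2 arms differ only at the 3′ end, as printed here.
miR-451-5p, 21 nt: aAACCGTTaccattactgagt
miR-451-5p, 23 nt: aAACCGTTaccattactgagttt
miR-21-5p, 22 nt: tAGCTTATcagactggtgttgg
miR-21-5p, 23 nt: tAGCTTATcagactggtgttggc

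The 22-nt miR-21-5p sequence held 76.4% and 79.8% of its arm in brain and 54.0% and 60.1% in liver, and the printed 23-nt sequence 6.33% and 5.55% against 19.2% and 20.5%. In the miR-17/20/93 arm, known from cell growth, 23-nt sequences held 41.3% and 42.5% in brain and 60.0% and 52.7% in liver. Each of these arms was longer in both liver libraries than in either brain library.

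Arm use was taken from family sums, in which paralogous hairpins are pooled. A change in their mix therefore cannot be told apart from a change in arm use. It could be tested for 6 such hairpin families with both arms listed in all 4 libraries, of which 1 differed (16.7%). In miR-19, a member of the miR-17 cluster, the 5p arm stood at 1247 and 879 RPM in brain and 25.7 and 31.8 RPM in liver, and the 3p arm at 496 and 183 RPM against 105 and 55.7 RPM. The 5p arm held 71.5% and 82.7% of the summed RPM of both arms in brain and 19.6% and 36.4% in liver. The log2 ratio of 5p over 3p was 3.22 ± 0.63 higher in brain (limma adjusted p = 0.0294). This call was lost without the female brain, the male brain or the female liver, with adjusted p from 0.0147 to 0.222 over the 4 libraries left out in turn.
miR-19-5p: gCTAGTTTtgcatagttgcact
miR-19-3p: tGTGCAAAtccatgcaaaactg

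The 5p arm of miR-99/100 held 82.0% and 78.8% in brain and 30.3% and 60.7% in liver, a difference of 2.33 ± 0.72 that was not called (limma adjusted p = 0.0791). For miR-30, miR-126, miR-148 and miR-199 the differences were between -0.84 and 0.03, with adjusted p of 0.166 or more. In miR-199 the 5p arm held 7.49% and 8.16% in brain and 13.9% and 12.5% in liver. miR-144 and miR-210 had both arms listed in both organs but not in every library, and their log2 ratios ranged over 0.51 and 0.28. Among hairpins listed in brain alone, the 5p arm held 11.3% and 13.0% of miR-132, 13.8% and 9.26% of miR-9 and 41.8% and 50.5% of miR-129.

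**Figure D5:**
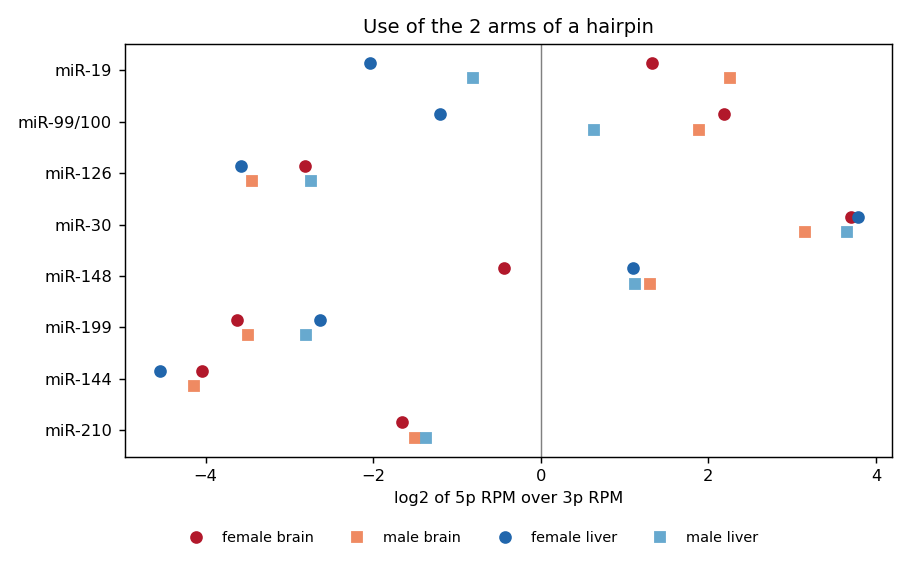
Log2 ratio of 5p over 3p RPM, each summed over paralogues, in 8 hairpins with both arms listed in brain and in liver. There is 1 point per library where both arms were listed. miR-19 lies above 0 in both brain libraries (1.33 and 2.26) and below 0 in both liver libraries (-2.03 and -0.81). In miR-126, miR-30 and miR-148 the organs overlap.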

How the data were processed

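Small RNA of pooled brain and liver was sequenced in each sex. Per the labels, RNA under 30 nt was purified on a gel, and adapters were ligated to it. The submitters' processing notes name CASAVA 1.7.0; aligner, trimming and annotation are not named in any source read here. The files deposited by the authors hold sequences with RPM values. The unit was read from the values, which were whole multiples, within 0.02, of 1 read in totals of 18.7 to 22.7 M.

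Sequences were assigned to families against 259 hand-written references (bases 2 to 18, 168 family arms), allowing 2 mismatches and a 5′ shift of 3 nt. For 5 references the need was seen only from sequences left unassigned at first. When tested, 1 of 10000 random sequences found a family, as did 1295 of 1295 mutated references. Adapter, rRNA and tRNA matches were set aside, and 195 sequences stayed unassigned. No genome was used, and family names do not show orthology. Member forms were told apart by 1 base and named after human or zebrafish paralogues.

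limma 3.58.1 (R 4.3.3), two-sided, was fitted on log2(RPM + 1), with values under 8.03 RPM, the highest listing minimum, raised to it, Benjamini-Hochberg adjustment over all features and a threshold of 0.05. In the rescaled fits this minimum was 21.4 in RPM scaled to miRNA reads and 18.4 in RPM scaled by median-of-ratios. Means and sums count unlisted sequences as 0. A feature unlisted in both sexes of an organ has no spread in that organ. Length, shares and log2 arm ratios were fitted the same way. A fold bound is the lower of the 2 values in the organ where a sequence was listed over the higher of the 2 file minima of the other organ. In simulated data 1.65% of unchanged families and 68.5%, 80.5% and 90.5% of those changed by 1, 2 and 4 log2 units were called. These data had normal noise of the same spread in both organs, no listing minimum and mostly unchanged families. The rates therefore do not carry over to the fits here, where many arms had no spread in 1 organ and most differed in deposited RPM. Intervals and errors from reads cover counting error only, since PCR reads carried no molecular identifiers.

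The comparison, members, lists and naming rule were chosen with earlier results of these data known. Named were arms past the threshold without overlap and with a mean of 50 RPM or more in the leading organ, 12 per direction, the 10 most abundant per library and the members of 14 lists; isoform and arm results follow their tests. Alternatives were other scalings, pseudocounts, filters, matching limits, sex as a block and leaving out each library.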

Additional observations from a re-analysis of the deposited data

Results flagged for a closer look

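The female and the male libraries pointed in opposite directions in the 7 values given here, and these differences were not tested. The 7 are not all such values. For example, the leading share of miR-190-5p was 49.9% in brain against 58.5% in liver in females, and 64.1% against 44.2% in males. For miR-146-5p, a miRNA of inflammation, brain minus liver was 1.08 in females and -0.36 in males on the log2 scale (84.1 against 39.3 RPM in females, 118 against 151.5 RPM in males). For the log2 arm ratio of miR-126, brain minus liver was 0.76 in females and -0.70 in males. The log2 arm ratio of miR-148 differed by -1.54 in females and 0.17 in males. The miR-148 arms stood at 7.85 to 19.3 RPM in the brains, near the listing minimum, which limits the ratio. Female brain did not list the leading miR-148-5p sequence, which held 39.6% of that arm in male brain. For miR-23-3p the level differed by 1.09 in females and -0.05 in males, and for the miR-27c form by 0.24 and -0.86, on the log2 scale. The share of the miR-15 form in its pair differed by -10.9 percentage points in females and 1.14 in males, and that of the miR-25 form by -7.38 and 1.33.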

How the results depend on the processing

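Scaling moved the levels most. Scaled to miRNA reads, 37 family arms were higher in brain and 24 in liver, and 159 and 101 exact sequences. Median-of-ratios gave 47 and 15 family arms, and 231 and 59 sequences. Restricted to features listed in all 4 libraries there were 41 and 3 family arms, and 136 and 3 sequences, since fewer were tested, and with at least 50 RPM in 2 libraries 315 and 12 sequences. Leaving out 1 library gave 66 to 80 family arms higher in brain and 3 to 6 in liver, and 414 to 858 and 12 to 23 sequences; these counts were lowest for family arms in brain without the female brain (66), for family arms in liver without the male brain (3), for sequences in brain without the female liver (414) and for sequences in liver without the male brain (12), where the lone library of an organ is assumed to vary like the others.

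Of the named values, scaled to miRNA reads, these changed direction to brain minus liver on the log2 scale of -1.19 (miR-101-3p), -1.60 (miR-126-3p), -0.95 (miR-126-5p), -2.07 (miR-141-3p/200a-3p), -1.03 (miR-143-3p), -1.84 (miR-144-3p), -1.30 (miR-142-3p), -0.13 (miR-144-5p), -0.78 (miR-145-5p), -3.12 (miR-146-5p), -2.63 (the miR-17/20/93 arm), -0.014 (miR-200-3p with miR-429-3p), -0.24 (miR-21-5p), -0.0083 (miR-223-3p), -0.95 (miR-24-3p), -1.48 (miR-26-5p), -1.18 (miR-451-5p) and -0.45 (miR-499-5p). With median-of-ratios the values were -0.32 (miR-101-3p), -0.73 (miR-126-3p), -0.50 (miR-126-5p), -0.45 (miR-142-3p), -1.21 (miR-141-3p/200a-3p), -0.17 (miR-143-3p), -0.97 (miR-144-3p), -0.13 (miR-144-5p), -0.17 (miR-145-5p), -2.26 (miR-146-5p), -1.76 (the miR-17/20/93 arm), -0.083 (miR-24-3p), -0.61 (miR-26-5p), -0.31 (miR-451-5p) and -0.17 (miR-499-5p). Scaled to miRNA reads, miR-144-5p, miR-145-5p, miR-200-3p with miR-429-3p, miR-223-3p and miR-499-5p were raised to that scale's minimum in both brains. Their differences there rest on this minimum, as does that of miR-144-5p by median-of-ratios. Leaving out 1 library moved miR-146-5p, which was not called, from -0.60 (without the female liver) to 1.32. No other named family arm changed direction under another pseudocount, filter or matching limit, with unlisted values at 0, with sex as a block or without any 1 library.

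For isoforms, the mean length differed in 0 arms with sex as a replicate block, 6 over sequences at or above the common minimum and 7 over sequences listed in all 4 libraries, a setting added after the data were seen, and in 6 to 14 without 1 library (6 without the female brain). The share of the leading sequence differed in 13 arms with at least 50 RPM in each library and in 11 over sequences listed in all 4, and in 14 to 21 without 1 library. Over the latter sequences the leading share of miR-27-3p, there that of another sequence, became -14.2. The mean length of the arm of miR-130-3p and miR-301-3p became 0.055 nt over them. The counts for the share of the 5′ end, given next, are not all arms that differed. Without a brain library they include arms that stood at 100% in every library, such as the miR-17/20/93 arm. The difference of those arms was 0 and without spread, so these counts do not show that their 5′ ends differed. The share of the 5′ end differed in 9 arms with at least 50 RPM in each library, in 1 with the block, in 0 over sequences listed in all 4, and in 2 to 39 without 1 library (2 without either liver, 38 and 39 without a brain). Arm use differed in 2 hairpins with the block, 2 from the most abundant sequence of each arm and 0 at or above the common minimum, and in 0 to 2 without 1 library. Of ratios that were not called, the miR-126 log2 arm ratio ranged without 1 library from -0.39 (female liver) to 0.45, was -0.29 without the female brain and became -0.060 from the most abundant sequences. The miR-148 log2 arm ratio ranged from -1.55 to 0.18 (without the female brain), and the miR-30 log2 arm ratio became 0.24 from the most abundant sequences. The causes were not tested. The listing minimum of 6.002 to 8.03 RPM limits every statement on liver isoforms. The planned count test (edgeR) on reads recovered from RPM was not run.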

Other observations

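Of the sequences that matched no reference, those most abundant in brain were agacatcagaaaaatctgtgct, at 228 and 190 RPM, and tccctgctggtccatgaggtcc, at 194 and 153 RPM (females first), and neither was listed in liver. Others were similar in both organs. The 20-nt sequence tgtcggtgatgaaaattgtg stood at 117 and 123 RPM in brain and 136 and 101 RPM in liver, and atgtcaaagtgaagaaattc at 117 and 86.8 RPM in brain and 87.7 and 209 RPM in liver. They are shown because they rank among the 4 most abundant unassigned sequences of an organ.

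Female brain listed 49 sequences with an undetermined base (N), summing to 1211 RPM, against 4 in male brain (44.0 RPM) and 1 in each liver.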
